A study of Mus musculus with 10 samples.

Results

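Regions bound by Dlx2 in the basal ganglia were compared with those in the olfactory bulb of mouse embryos on embryonic day 16 (E16). The study profiled Dlx2 with ChIP-seq (chromatin immunoprecipitation followed by sequencing) in 3 brain tissues at E16 and postnatal day 3 (P3), with 5 immunoprecipitated libraries and 5 input libraries. The basal ganglia group is 1 library of E16 basal ganglia chromatin precipitated with an anti-Dlx2 antibody, and the olfactory bulb group is 1 library of E16 bulb chromatin precipitated with an antibody of the same label. The labels give no strain, genotype or sex and do not say whether tissue of several embryos was pooled. Both groups are whole dissected tissues, so a smaller number of Dlx2-expressing cells and less signal per cell cannot be told apart, and called regions give no expression level by which a tissue label could be checked.

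On chromosomes 1 to 19 and X, the E16 basal ganglia list held 14732 regions and the E16 bulb list 1665, or 16397 of the 25667 regions in the 5 deposited lists on all chromosomes. A region of one list was called shared when it overlapped a region of the other by at least 1 bp. This left 13526 basal-ganglia-only regions, 1206 shared basal ganglia regions that met 1211 shared bulb regions, and 454 bulb-only regions. Each group is 1 library, so nothing was tested between the tissues, and all intervals are exact Clopper-Pearson 95% intervals that cover counting error only. Read depth is unknown, and regions absent from a list fell under the authors' cut-off there, which does not show that they were unbound. The region names of the E16 basal ganglia list follow the same pattern as those of the E16 cortex list, and those of the E16 bulb list follow another, so tissue and whatever that pattern marks cannot be told apart. The P3 cortex names begin like the E16 bulb names and carry the same lane mark, but all 1666 E16 bulb names hold a mark for removed duplicates and 0 of the 2139 P3 cortex names do.

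Dlx2 belongs to the homeodomain transcription factors and is known from GABAergic neurons of the forebrain. In the embryonic forebrain it is made by progenitors and young neurons of the ganglionic eminences, the swellings of the basal ganglia primordium that give rise to striatal neurons and to migrating interneurons of the cortex and olfactory bulb. Dlx proteins bind DNA at short AT-rich sites built around a TAATT core, and they regulate one another, the GABA synthesis genes and many other transcription factor genes. In the embryonic bulb, Dlx2 marks the arriving and local GABAergic interneurons, while the projection neurons of the bulb, the mitral and tufted cells, are glutamatergic.

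Sequence was available for promoters, taken as 300 bases from 250 before to 50 after each transcription start listed in RefSeq (GRCm38.p6, the build also called mm10). The next 4 promoters are shown because they were among the 6 strongest with a shared summit in each tissue. Of the others among the 6 strongest by the basal ganglia summit, 2900052L18Rik held 1 TAATTG and Gm32335 held neither motif. By the bulb summit the others were Tnrc18 with 1 TAATTG and Ska2 with neither. Capitals mark TAATTA or TAATTG, read on either strand, and each sequence runs 5′ to 3′ on the strand of its gene.
Dlx6os1 (chr6:6869484-6869783, minus strand): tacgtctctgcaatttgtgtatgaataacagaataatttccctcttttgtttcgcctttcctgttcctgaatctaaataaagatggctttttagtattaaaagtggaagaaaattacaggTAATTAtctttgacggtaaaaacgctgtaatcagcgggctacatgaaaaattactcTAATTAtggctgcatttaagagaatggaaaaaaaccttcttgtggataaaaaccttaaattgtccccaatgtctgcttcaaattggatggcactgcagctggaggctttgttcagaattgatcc
Vldlr (chr19:27216234-27216533, plus strand): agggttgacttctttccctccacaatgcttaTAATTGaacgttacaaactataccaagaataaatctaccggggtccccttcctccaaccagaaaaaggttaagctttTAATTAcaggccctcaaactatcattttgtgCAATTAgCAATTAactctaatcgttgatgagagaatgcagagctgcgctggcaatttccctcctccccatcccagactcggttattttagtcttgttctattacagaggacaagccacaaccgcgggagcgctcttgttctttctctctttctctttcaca
Msx2 (chr13:53472731-53473030, minus strand): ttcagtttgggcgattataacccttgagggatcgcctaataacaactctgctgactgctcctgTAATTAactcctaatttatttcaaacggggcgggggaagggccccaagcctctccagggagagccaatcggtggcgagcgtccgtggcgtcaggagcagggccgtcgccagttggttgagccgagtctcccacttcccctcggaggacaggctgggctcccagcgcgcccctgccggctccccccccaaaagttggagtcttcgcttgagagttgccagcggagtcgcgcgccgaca
Gm52576 (chr2:47834114-47834413, minus strand): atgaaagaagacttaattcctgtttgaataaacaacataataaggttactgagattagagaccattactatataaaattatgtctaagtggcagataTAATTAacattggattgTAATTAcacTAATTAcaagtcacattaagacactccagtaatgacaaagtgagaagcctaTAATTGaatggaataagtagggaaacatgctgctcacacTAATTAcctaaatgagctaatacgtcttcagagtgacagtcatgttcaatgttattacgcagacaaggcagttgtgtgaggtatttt

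Dlx6os1 is a noncoding RNA gene with its promoter in the interval between Dlx6 and Dlx5, and that promoter held 2 TAATTA sites. Its summits lay at -115 bp from the start in the basal ganglia and at -105 bp in the bulb, with a fold enrichment over local background of 35.6 in the basal ganglia list and 15.2 in the bulb list. Fold enrichment is the authors' value for the summit within its own library and ranks regions inside a list; it does not compare amounts between the tissues. Vldlr encodes a receptor for Reelin, a guidance protein of migrating neurons, and its promoter held 1 TAATTA and 3 TAATTG sites. In the basal ganglia the Vldlr summit lay at -117 bp, and in the bulb at -114 bp, with a fold enrichment of 13.4 in the basal ganglia (rank 394) and 11.2 in the bulb (rank 21). Msx2, a homeobox gene related to the Dlx genes, had 1 TAATTA, and its summits lay at -214 bp in the basal ganglia (fold enrichment 13.3) and -180 bp in the bulb (11.05). Gm52576, a predicted gene, held 4 TAATTA sites and 1 TAATTG site, and the fold enrichment was 11.6 in the basal ganglia and 6.72 in the bulb.

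For contrast, the strongest promoter region found only in the basal ganglia was that of Dnajb14, a co-chaperone gene, which had no TAATTA or TAATTG, as had the other 5 of the 6 strongest. Capitals mark GGGCGG, read on either strand. Its summit lay at -162 bp with a fold enrichment of 18.4.
Dnajb14 (chr3:137867425-137867724, plus strand): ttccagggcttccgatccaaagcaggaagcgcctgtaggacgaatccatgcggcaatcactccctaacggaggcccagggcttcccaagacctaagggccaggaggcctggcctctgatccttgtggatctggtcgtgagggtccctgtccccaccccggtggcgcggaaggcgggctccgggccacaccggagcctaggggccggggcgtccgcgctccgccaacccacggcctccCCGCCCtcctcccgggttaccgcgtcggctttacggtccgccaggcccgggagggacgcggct

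Among bulb-only regions the strongest promoter was that of Dolpp1, an enzyme gene of the dolichol pathway, and the third was that of Arntl, which encodes the circadian clock factor BMAL1. Capitals mark CCAAT, also as ATTGG on the other strand. Dolpp1 and Arntl are shown for their many copies, 4 and 8, and were chosen after these were seen. Of the other 4 among the 6 strongest, Mrps31, Zfand6 and A730036I17Rik held 1 each and Kpnb1 3, and A730036I17Rik also held 2 TAATTG. The summits lay at -72 bp with a fold enrichment of 5.16 and at -164 bp with 4.86.
Dolpp1 (chr2:30392004-30392303, plus strand): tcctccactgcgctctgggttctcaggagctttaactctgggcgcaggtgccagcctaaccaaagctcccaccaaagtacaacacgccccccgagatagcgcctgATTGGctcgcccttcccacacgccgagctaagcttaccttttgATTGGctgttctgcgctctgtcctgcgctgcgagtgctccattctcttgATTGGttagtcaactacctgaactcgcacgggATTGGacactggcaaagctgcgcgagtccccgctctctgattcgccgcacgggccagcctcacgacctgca
Arntl (chr7:113207215-113207514, plus strand): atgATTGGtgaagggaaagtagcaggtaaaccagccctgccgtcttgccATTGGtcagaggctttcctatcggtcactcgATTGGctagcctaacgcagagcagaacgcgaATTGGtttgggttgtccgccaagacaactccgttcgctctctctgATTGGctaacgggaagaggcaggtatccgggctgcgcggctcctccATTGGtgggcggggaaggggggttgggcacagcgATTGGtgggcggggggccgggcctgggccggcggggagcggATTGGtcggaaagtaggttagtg

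Few summits of any class fell within a listed promoter, so motif content in the shared and bulb-only classes rests on few promoters. Chromosome 18 has no promoter in the table, which leaves 12972 basal-ganglia-only, 1159 shared and 440 bulb-only regions. Of these, 380 basal-ganglia-only summits (2.93%, 2.65 to 3.23), 21 shared summits by their basal ganglia position (1.81%, 1.13 to 2.76) and 28 bulb-only summits (6.36%, 4.27 to 9.07) lay in a promoter. A TAATTA or TAATTG occurred in 104 of 425 promoters with a basal-ganglia-only summit (24.5%, 20.5 to 28.8), in 11 of 21 with a shared summit (52.4%, 29.8 to 74.3), in 3 of 33 with a bulb-only summit (9.09%, 1.92 to 24.3), and in 12.4% of all 32619 promoters (12.02 to 12.73). By the bulb summit, 10 of 25 shared promoters held one (21.1 to 61.3%). The basal-ganglia-only and bulb-only intervals overlapped, and by the bulb summit the shared interval overlapped both. The order was different for CCAAT, found in 45.4% of basal-ganglia-only promoters (40.6 to 50.3), 52.4% of shared promoters (29.8 to 74.3), 69.7% of bulb-only promoters (51.3 to 84.4) and 37.6% of all promoters (37.1 to 38.1). By the bulb summit 16 of 25 shared promoters held CCAAT (42.5 to 82.03%), and the shared and bulb-only intervals overlapped either way. GGGCGG occurred in 44.9% of basal-ganglia-only (40.1 to 49.8), 33.3% of shared (14.6 to 57.0), 69.7% of bulb-only (51.3 to 84.4) and 35.9% of all promoters (35.4 to 36.4). Median GC content was 56.0%, 52.0% and 59.0% in the 3 classes, against 53.0% over all promoters. Promoters of neighbouring genes can share sequence and 1 summit, so they are not independent, and a match is a string of letters and not a shown binding site.

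Most bulb regions were also basal ganglia regions, while most basal ganglia regions had no bulb counterpart. The shared part was 8.19% of the basal ganglia list (7.75 to 8.64) and 72.7% of the bulb list (70.5 to 74.9). It depended on strength in both lists, but over very different ranges. From the strongest to the weakest quintile of the basal ganglia list by −log10 q, 25.7% (24.1 to 27.3), 7.64%, 3.97%, 2.31% and 1.36% (0.971 to 1.84) of the regions were shared. From the strongest to the weakest quintile of the bulb list the shares were 87.1% (83.0 to 90.5), 79.3%, 71.8%, 65.2% and 60.4% (54.9 to 65.7). The strongest basal ganglia quintile alone held 2946 regions, more than the 1665 of the whole bulb list, so most of them could not have had a bulb counterpart of their own if all else were equal. List length thus limits the basal ganglia shares, and the levels of the 2 lists cannot be compared directly. The lists differ in length, and when only the 1665 strongest basal ganglia regions were set against the 1665 bulb regions the shares were 34.7% and 35.1%.

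**Figure D1:**
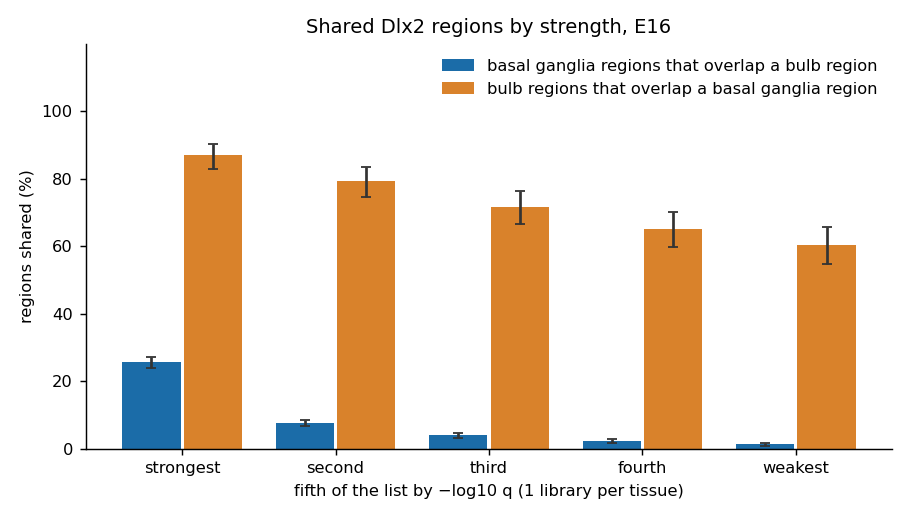
Share of E16 Dlx2 regions that overlap a region of the other tissue (y axis, %), by quintile of each list from the strongest to the weakest −log10 q (x axis), basal ganglia in blue and bulb in orange; error bars are exact 95% intervals for counting error. The basal ganglia share is 25.7% in the strongest quintile and 1.36% in the weakest, and the bulb share 87.1% and 60.4%.

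Where the lists met, they usually met at the same place. The shared regions formed 1214 overlapping pairs, since 8 basal ganglia regions met more than 1 bulb region and 3 bulb regions met more than 1 basal ganglia region. The summits of a pair were a median of 40 bp apart (quartiles 17 and 79 bp), and 93.2% of pairs (91.6 to 94.5) had summits at most 200 bp apart. In 813 pairs the bulb region lay wholly inside the basal ganglia region, and paired basal ganglia regions had a median width of 627 bp and paired bulb regions 436 bp. The choice of 1 bp decided few cases, because 6 pairs overlapped by less than 100 bp, the smallest overlap was 3 bp, and 5 bulb-only regions lay within 500 bp of a basal ganglia region, the nearest at 3 bp. Bulb-only regions were a median of 64.7 kb from the nearest basal ganglia region (quartiles 17.6 and 165 kb).

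Within the shared pairs, fold enrichment in one list went only weakly with that in the other. Only regions called in both lists enter here, and the shared part itself rose with strength in each list. The median fold enrichment of the pairs was 8.37 in the basal ganglia list and 5.45 in the bulb list. Across the 1214 pairs, which come from the same 2 libraries and are not independent replicates, the correlation of log2 fold enrichment was 0.25 (Pearson) and that of the ranks 0.23 (Spearman). Of the pairs, 112 were in the strongest decile of both lists, 443 in that of the basal ganglia list alone and 37 in that of the bulb list alone. These deciles held 1473 basal ganglia and 166 bulb regions, so 443 and 37 come from deciles of very unequal size.

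**Figure D2:**
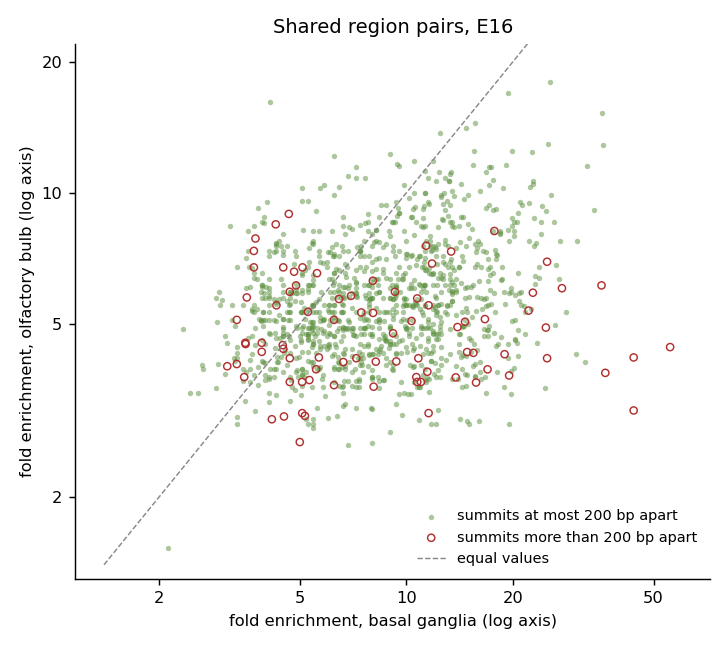
Fold enrichment of the 1214 shared pairs in the basal ganglia list (x axis) and the bulb list (y axis), both on log axes, 1 point per pair; open red circles are the 83 pairs whose summits were more than 200 bp apart and the dashed line marks equal values. The cloud is broad, with a Pearson correlation of 0.25 for log2 values.

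The pairs that ranked high in both lists included regions at genes of forebrain development. The lowest summed rank belonged to the Dlx6 and Dlx5 interval, where the summits were 10 bp apart. Auts2, a neurodevelopmental gene, held a region with a fold enrichment of 36.0 in the basal ganglia and 12.9 in the bulb and summits 5 bp apart. Shtn1, which encodes the axon outgrowth protein shootin, had 34.0 in the basal ganglia and 9.13 in the bulb with summits 11 bp apart. Adk, the adenosine kinase gene, had 32.5 and 11.5, and the LIM-only gene Lmo1 had 19.96 and 12.5, again for the basal ganglia and the bulb, with the Lmo1 region 16.4 kb outside the gene. Tle4, a Groucho corepressor gene, lay 207 kb from a pair with 25.2 in the basal ganglia and 12.9 in the bulb, and Ccdc39, a ciliary gene, 61.4 kb from one with 22.3 and 10.3. The pair 18.95 kb from Acadsb had 25.6 in the basal ganglia and 17.999 in the bulb. Those assigned to 1700008P02Rik (25.6 and 9.91) and Gm11232 (24.8 and 9.09) lay 267 and 271 kb from the gene, so the nearest gene identifies the place only.

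Other pairs held very different ranks. At a second Auts2 region the summits were 26 bp apart, with a fold enrichment of 14.2 in the basal ganglia and 3.02 in the bulb. Slc35b3 (16.8 in the basal ganglia and 3.48 in the bulb), Sh3bgrl2 (19.5 and 2.95) and Dync1i2, a dynein subunit gene (18.1 and 3.89), also ranked far higher in the basal ganglia. The opposite held at Hrh2, a histamine receptor gene (3.18 in the basal ganglia and 8.39 in the bulb), and at Dkk2, a secreted Wnt modulator gene (3.71 and 8.39). It held as well at Vwc2l (3.32 and 6.75), Slx4ip (3.71 and 7.36) and Fam241a (3.52 and 6.07), each with the basal ganglia value before that of the bulb. The Slx4ip summits were 404 bp apart and the Fam241a region lay 253 kb from the gene.

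Basal-ganglia-only regions lay outside genes less often than shared and bulb-only regions, whose shares there were alike. Of basal-ganglia-only summits, 17.3% (16.6 to 17.9) lay within 1 kb of a gene boundary and 22.2% (21.5 to 22.9) outside genes. Among shared regions, by the basal ganglia summit, 9.78% (8.17 to 11.6) were at a boundary and 39.4% (36.6 to 42.2) outside genes, and among bulb-only regions 13.7% (10.6 to 17.2) and 39.2% (34.7 to 43.9). The median distance to a listed transcription start was 20.9 kb for basal-ganglia-only, 42.7 kb for shared and 42.5 kb for bulb-only summits. Within the strongest quintile of the basal ganglia list 15.02% (13.6 to 16.6) of 2190 basal-ganglia-only summits and 7.28% (5.53 to 9.36) of 756 shared summits were at a boundary. In that quintile 25.5% (23.7 to 27.4) of the basal-ganglia-only and 39.3% (35.8 to 42.9) of the shared summits lay outside genes. At boundaries the intervals of the classes overlapped in each of the 4 weaker quintiles, and in the weakest the shared value was the higher, with 27.5% (14.6 to 43.9) of 40 shared and 21.2% (19.8 to 22.8) of 2907 basal-ganglia-only summits. Regions wider than 1 kb made up 13.6% (13.0 to 14.2) of the basal-ganglia-only class, 16.2% (14.1 to 18.4) of the shared class measured in the basal ganglia and 0.441% (0.0534 to 1.58) of the bulb-only class.

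The classes also differed in where else they were called. On all chromosomes the E16 cortex list held 6333 regions, the P3 bulb list 734 and the P3 cortex list 2139. A short list limits the share of a large class that can be found in it. Of the basal-ganglia-only regions 27.6% (26.8 to 28.3) were in the E16 cortex list, 0.547% (0.43 to 0.686) in the P3 bulb list and 2.99% (2.71 to 3.30) in the P3 cortex list. Of the shared regions 12.2% (10.4 to 14.2) were in the E16 cortex list, 33.9% (31.2 to 36.7) in the P3 bulb list and 18.6% (16.4 to 20.9) in the P3 cortex list. Of the 454 bulb-only regions 1 was in the E16 cortex list (0.22%, 0.00558 to 1.22), 115 in the P3 bulb list (25.3%, 21.4 to 29.6) and 75 in the P3 cortex list (16.5%, 13.2 to 20.3). Bulb-only and shared bulb regions of like rank recurred about equally in the P3 bulb, with 69.8% (53.9 to 82.8) of 43 bulb-only and 70.7% (65.1 to 75.9) of 290 shared regions in the strongest quintile. In the strongest quintile of the basal ganglia list, 37.4% (34.0 to 41.0) of 756 shared regions were in the P3 bulb list. Of the 2190 basal-ganglia-only regions in that quintile, 1.00% (0.631 to 1.52) were. The E16 cortex shares the naming pattern of the basal ganglia, and the P3 cortex shares the name start and lane of the E16 bulb but not its duplicate mark. The P3 bulb has a name start of its own, but all 734 of its names carry the lane and duplicate marks of the E16 basal ganglia names. The part of these patterns in the overlaps was not tested.

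**Figure D3:**
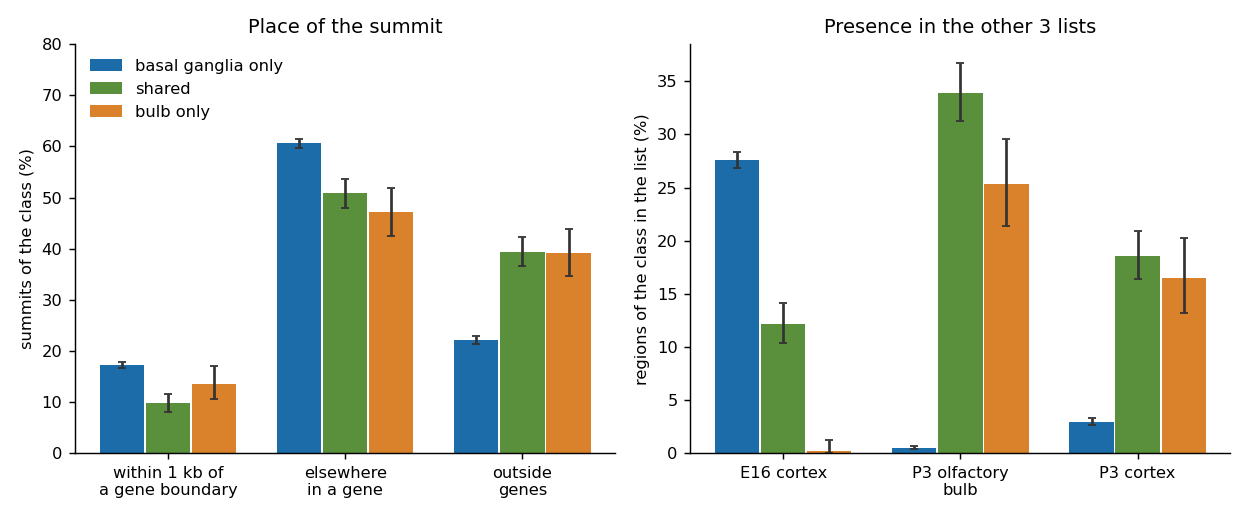
Left, share of summits by place in basal-ganglia-only (blue), shared (green) and bulb-only (orange) regions; right, share of each class called in the E16 cortex, P3 bulb and P3 cortex lists, both in % with exact 95% intervals. Shared and bulb-only summits lie outside genes in 39.4% and 39.2% of cases against 22.2% for basal-ganglia-only. Of the shared regions 33.9%, and of the 13526 basal-ganglia-only regions 0.547%, are in the P3 bulb list, which holds only 734 regions.

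The strongest basal-ganglia-only regions were wide and were also called in the E16 cortex. All 62 basal-ganglia-only regions among the 100 strongest of the list were wider than 1 kb, with a median of 4833 bp, all 62 were in the E16 cortex list (94.2 to 100%), and 1 lay outside genes. Of the 38 shared regions among those 100, 30 were wider than 1 kb, with a median of 1303 bp, 33 were in the E16 cortex list, and 12 lay outside genes. The 10 strongest basal-ganglia-only regions spanned 3771 to 19000 bp with a fold enrichment of 30.9 to 53.2, and 0 of them was in either P3 list. They lay within the RNA-binding protein genes Mex3a and Mex3b, Marcks, which encodes a membrane-bound substrate of protein kinase C, the protocadherin gene Dchs1 and the receptor phosphatase gene Ptprs, and also within Mn1, Fam171a2, Zfp316 and 2700081O15Rik, with 1 located 47.7 kb from Polg. Basal-ganglia-only regions in the E16 cortex list had a median width of 773 bp and lay at a gene boundary in 26.1% of 3729 cases (24.7 to 27.6). Those absent from it had a median of 447 bp and 13.9% of 9797 (13.2 to 14.6).

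The 10 strongest bulb-only regions spanned 444 to 2692 bp, the last being the widest of the bulb list. All 10 were in the P3 bulb list, 7 were in the P3 cortex list and 0 in the E16 cortex list. Presence in the P3 bulb list was also frequent among strong shared regions, at 81 of the 91 in the 100 strongest of the bulb list. The first was 42.1 kb from Sema6a, a transmembrane semaphorin gene, and others lay within Smad2, a TGF-beta signal transducer gene (fold enrichment 12.1), Grip1, a glutamate receptor scaffold gene (12.3), Arhgef10, a guanine nucleotide exchange factor gene (11.2), the amino acid transporter gene Slc38a9 (10.7) and the ubiquitin ligase gene Siah1a (9.19). A region of 545 bp within Tbx21, the T-box gene of mitral and tufted cells, had a fold enrichment of 10.8 and lay on chromosome 11 from 97108921 to 97109465. It was in the P3 bulb list but not in the P3 cortex list. The basal ganglia list held 1 region within 30 kb of Tbx21, with a fold enrichment of 8.07 and its summit 41.0 kb from the lower end of the gene. The region within Tex14 lay at the small RNA gene Rnu3b4 (10.2), that within Cenpo spanned 2692 bp (5.76), and that 70.7 kb from Tnfrsf11b had 10.2.

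At the level of genes, most genes with a bulb region also had a basal ganglia region. A gene was counted if it held a summit in its body or no more than 10 kb from either end. Of 21627 protein-coding genes, 5767 had a basal ganglia region (26.7%) and 785 a bulb region (3.63%), and 664 had both. At 558 genes (2.58%) at least 1 bulb region was shared, and at 106 genes with regions of both lists none was shared, where the nearest summits of the 2 tissues were a median of 19.2 kb apart. Genes with a basal-ganglia-only region numbered 5605 (25.9%) and genes with a bulb-only region 274 (1.27%), of which 121 had no basal ganglia region. These counts depend on list length: with the 1665 strongest regions of each list, 973 genes had a basal-ganglia-only region (4.5%), 275 a shared region (1.27%) and 572 a bulb-only region (2.64%), so that bulb-only then exceeded shared. At that length 5.46% of genes had any basal ganglia region and 3.63% any bulb region. The median gene length was 24.8 kb with a basal ganglia region alone, 154 kb with both, 36.3 kb with a bulb region alone and 15.04 kb with none.

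Of the 6 Dlx genes, Dlx1, Dlx2, Dlx5 and Dlx6 were occupied in both tissues, Dlx4 by 1 basal-ganglia-only region and Dlx3 by none. Between 30 kb below Dlx1 and 30 kb above Dlx2 the basal ganglia list held 14 regions, of which 4 were shared and 10 basal-ganglia-only, and the bulb list held 5, all of them shared. The strongest basal ganglia region there covered Dlx2 itself, from 71540119 to 71546773 on chromosome 2, with a fold enrichment of 35.3, and no bulb region overlapped it. Between Dlx1 and Dlx2 lay the summit of a basal ganglia region of 22.8 that met the strongest bulb region of 10.6, with summits 28 bp apart. At Dlx6 and Dlx5 the basal ganglia list held 5 regions, 3 of them shared, and the bulb list 4, all shared. The 3 shared basal ganglia regions there had a fold enrichment of 23.0, 35.6 and 6.57, and the 4 bulb regions 8.76, 15.2, 6.14 and 7.57. The basal ganglia regions were long, 2 of them spanning 11952 and 13007 bp, whereas the bulb regions there spanned 489 to 986 bp. Within 10 kb, 4 of the 6 Dlx genes had a basal-ganglia-only region, 4 a shared region and 0 a bulb-only region. The shares over all protein-coding genes were 25.9%, 2.58% and 1.27% in that order. With equal list lengths the counts for the Dlx genes were 2, 4 and 1, against 4.5%, 1.27% and 2.64% of all protein-coding genes. The 4 with shared regions are 2 neighbouring pairs that count the same intervals. With the gene body alone 1 had a basal-ganglia-only and 1 a shared region, against 17.5% and 2.04% of all protein-coding genes.

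**Figure D4:**
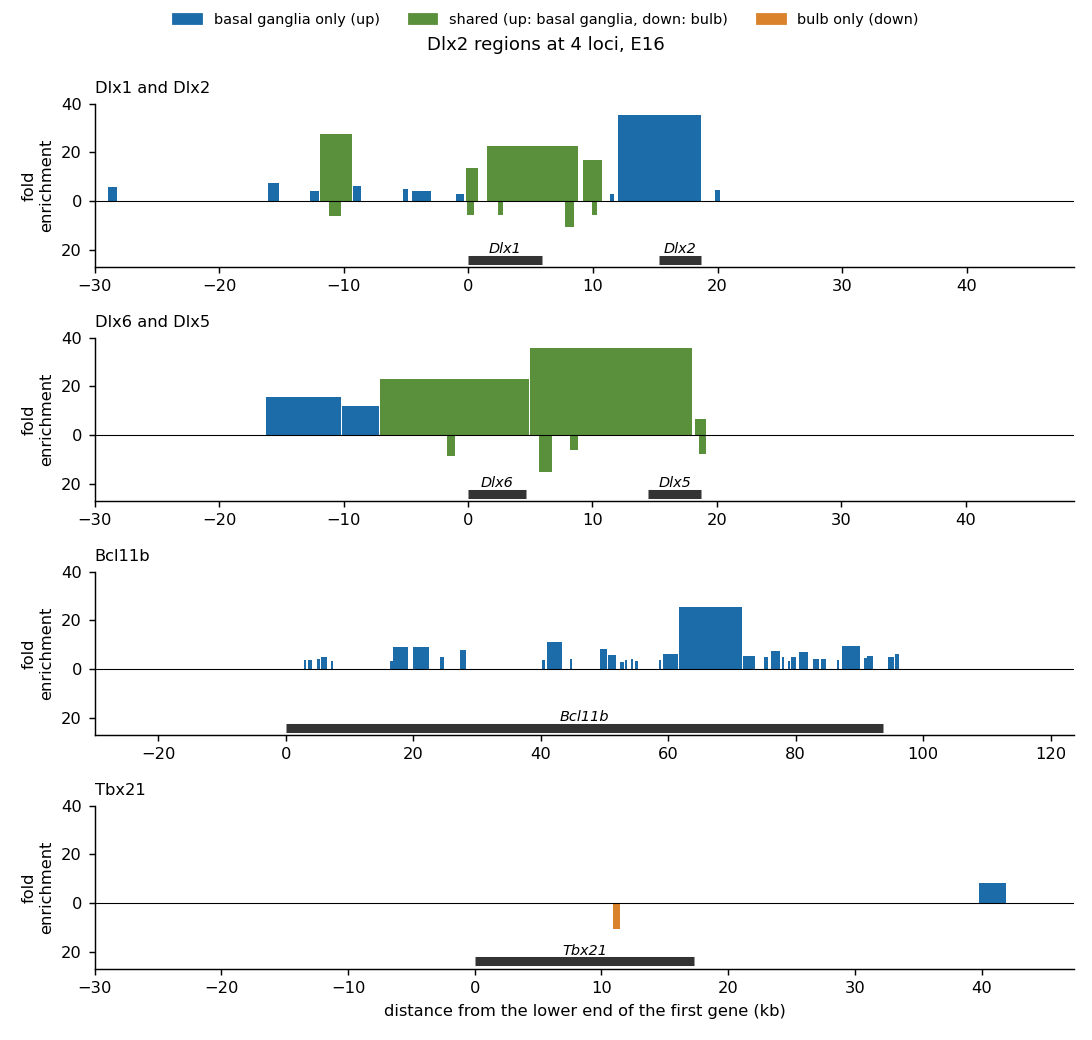
Dlx2 regions at 4 loci, plotted by distance in kb from the lower end of the first gene, with basal ganglia regions drawn upward and bulb regions downward; bar height is fold enrichment, width the region's span, green shared, blue basal ganglia only, orange bulb only, and dark bars the genes. Bcl11b holds 38 basal-ganglia-only regions and no bulb region, and Tbx21 a bulb-only region of 10.8.

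Shared regions lay at 4 of 7 genes that make, transport or break down GABA, among them both genes of its synthesis. Of the 7, 5 had a basal-ganglia-only, 4 a shared and 1 a bulb-only region, against 25.9%, 2.58% and 1.27% of all protein-coding genes. With equal list lengths the counts were 2, 4 and 2, against 4.5%, 1.27% and 2.64% of all protein-coding genes. Gad2, which encodes a GABA-synthesising enzyme, had a shared pair with summits 7 bp apart and a fold enrichment of 13.4 in the basal ganglia and 6.75 in the bulb. Gad1, which encodes the other GABA-synthesising enzyme, had 17.7 in the basal ganglia and 8.18 in the bulb, with summits 4044 bp apart inside a basal ganglia region of 7692 bp. The GABA transaminase gene Abat had 7.62 in the basal ganglia and 6.62 in the bulb. Abat also had a bulb-only region of 4.001 at 0.04 kb from the gene. Slc32a1, the vesicular GABA transporter gene, had 7 basal-ganglia-only regions, the strongest at 33.0, and no bulb region within 10 kb. The GABA transporter genes Slc6a11 and Slc6a13 had no region of either list.

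Transcription factor genes of the ganglionic eminences and GABAergic lineages were occupied in the basal ganglia in 26 of 28 cases and in the bulb in 11, all 11 through a shared region, against 26.7% and 3.63% of all protein-coding genes. With equal list lengths the counts were 18 and 11, against 5.46% and 3.63% of all protein-coding genes. None had a bulb-only region at full list length, against 1.27% of all protein-coding genes. When each list was limited to its 1665 strongest regions 4 did, against 2.64%. Pbx3, which encodes a TALE homeodomain cofactor, had 3 shared pairs, the one with the highest-ranked bulb region having 22.7 in the basal ganglia and 12.4 in the bulb. Npas1, a basic helix-loop-helix factor gene, had 22.3 in the basal ganglia and 7.77 in the bulb, and Meis1, another TALE gene, 18.5 and 6.30. Sox6, a factor of medial ganglionic eminence interneurons, went the other way in rank, with 3.58 in the basal ganglia (rank 9915) and 8.20 in the bulb (rank 138). Genes with basal-ganglia-only regions alone included Nr2f1 (strongest fold enrichment 25.6), Nkx2-1 (8.99), Lhx6 (7.65) and Sp8 (9.02). Meis2 had the most basal-ganglia-only regions of any protein-coding gene, 45 within 10 kb, beside 1 shared pair of 7.34 in the basal ganglia and 3.59 in the bulb.

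Striatal projection neuron genes were occupied in the basal ganglia in 14 of 24 cases and in the bulb in 6, against 26.7% and 3.63% of all protein-coding genes. With equal list lengths they were occupied in 7 and 6 cases, against 5.46% and 3.63%. Bcl11b, which encodes the striatal and corticospinal factor CTIP2, had 38 basal-ganglia-only regions and no bulb region, the strongest at 25.4 from 107972094 to 107981907 on chromosome 12. Ebf1 had 12, Isl1 7 and Six3 6 basal-ganglia-only regions, all 3 being striatal lineage factor genes, and each had no bulb region. The forkhead genes Foxp1 and Foxp2 had 1 and 3 shared regions, as well as 25 and 10 basal-ganglia-only regions, and Pde10a, a striatal phosphodiesterase gene, 1 and 6. Bulb-only regions occurred at 4 members, among them Foxp2 (6.95, within the gene), Ppp1r1b, which encodes DARPP-32 (4.32, 5.67 kb away), and the adenosine receptor gene Adora2a (3.85, 9.92 kb away). With the gene body alone, Foxp2 was the only 1 of the 4. The dopamine receptor genes Drd1 and Drd2 had no region of either list within 10 kb.

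Of 20 olfactory bulb interneuron genes, 16 were occupied in the basal ganglia and 6 in the bulb, against 26.7% and 3.63% of all protein-coding genes. With equal list lengths the counts were 10 and 6, against 5.46% and 3.63% of all protein-coding genes, so the gap between the tissues moved with list length. The 6 bulb members were Erbb4, Meis2, Robo1, Scgn, Sp9 and Th, all through shared regions. Erbb4, the neuregulin receptor gene, had 15.4 in the basal ganglia and 11.6 in the bulb with summits 49 bp apart. The pair 3.14 kb from Th, which encodes tyrosine hydroxylase of dopaminergic cells, had 12.5 in the basal ganglia and 5.93 in the bulb with summits 1 bp apart. Scgn, the secretagogin gene, had 6.90 and 6.14, and its only regions within 10 kb were this pair. Sp9, a zinc finger factor gene, had 2 pairs with 19.3 and 36.5 in the basal ganglia and 4.19 and 3.86 in the bulb, the second with summits 2532 bp apart. Of 12 genes of bulb projection neurons, 8 had a basal-ganglia-only region, 0 a shared region and 2 a bulb-only region. The shares over all protein-coding genes were 25.9%, 2.58% and 1.27% in that order. The 2 with a bulb-only region were Tbx21 and the semaphorin receptor gene Nrp1 (3.21). With equal list lengths the counts in these 3 classes were 2, 0 and 2, against 4.5%, 1.27% and 2.64% of all protein-coding genes. The excess of basal-ganglia-only members thus moved with list length.

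Migration and guidance genes numbered 32, of which the basal ganglia list occupied 27 and the bulb list 12, against 26.7% and 3.63% of all protein-coding genes. With equal list lengths the counts were 13 and 12, against 5.46% and 3.63%. These are long genes, with a median of 147 kb against 17.3 kb over all protein-coding genes. Shared regions were found at 8, with Vldlr and Erbb4 the strongest in the bulb. The axon guidance genes Slit1 (13.5 in the basal ganglia and 5.97 in the bulb), Slit3 (6.25 and 4.70), Robo1 (5.08 and 5.91) and Robo2 (8.79 and 4.17), the ephrin receptor gene Epha4 (5.28 and 4.76) and the neuregulin gene Nrg1 (9.33 and 6.14) were the other 6. Bulb-only regions lay at Dab1, which encodes the adaptor that carries the Reelin signal (4.50), Ncam1 (5.73), Nrp1 (3.21), Plxna4 (4.59) and Robo2 (3.94), each within the gene, and these genes also had 7, 12, 2, 5 and 7 basal-ganglia-only regions in the same order. Cxcl14, the chemokine gene that the study's title names as a target, had no region of either list within 10 kb. The nearest summit was 66.6 kb away in the basal ganglia list (4.12) and 305 kb away in the bulb list (4.76), and neither region was shared.

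Other lists were occupied mainly in the basal ganglia at full list length, where the basal ganglia list is much the longer. Notch and neurogenesis genes had basal-ganglia-only regions at 13 of 20 members, among them Dll1 and Dll3, which encode Notch ligands, and Hes1, Hes5 and Hes6, which encode Notch effectors or relatives. Only Notch1 had a shared pair, with 11.8 in the basal ganglia and 4.11 in the bulb. Of 20 cortical glutamatergic lineage genes, 16 had basal-ganglia-only regions, including Emx2 (10.9), Tbr1 (11.1), Lhx2 (16.02) and Neurod2 (9.84), and 3 had shared regions, namely Cux1, Cux2 and Sox5. Of 15 cortical interneuron subtype genes, 3 had a basal-ganglia-only region and Htr3a, the serotonin receptor gene of caudal eminence interneurons, a shared pair 3.15 kb away (13.3 in the basal ganglia and 6.14 in the bulb). Ubiquitous genes had basal-ganglia-only regions at 12 of 20 members, such as Gapdh (18.2), Tubb5 (17.0), Eef1a1 (14.1) and Actb (13.9), and shared or bulb-only regions at 0 of 20. For comparison, basal-ganglia-only regions lay at 25.9%, shared at 2.58% and bulb-only at 1.27% of all protein-coding genes. Basal-ganglia-only regions also lay at 26 of the 28 GABAergic transcription factor genes. With equal list lengths, genes occupied in the basal ganglia and in the bulb numbered 2 and 1 for Notch and neurogenesis. They numbered 8 and 3 for cortical glutamatergic lineage, 2 and 1 for cortical interneuron subtype and 5 and 0 for ubiquitous genes. Any basal ganglia region then lay at 5.46% and any bulb region at 3.63% of all protein-coding genes.

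Markers of other cells that a dissection could hold were occupied at shares around those of all protein-coding genes, which were 26.7% for the basal ganglia and 3.63% for the bulb. In the basal ganglia they were occupied in 3 of 11 oligodendrocyte, 2 of 8 astrocyte, 3 of 8 microglia, 1 of 9 endothelial and mural, 1 of 9 olfactory epithelium and ensheathing, and 1 of 9 liver and muscle genes. In the bulb 1 astrocyte gene, Slc1a3, which radial glia also express (14.9 in the basal ganglia and 3.82 in the bulb), and 1 olfactory epithelium gene, Adcy3 (5.76 in the bulb, 7.84 kb away), were occupied. The Adcy3 region is the one of 2692 bp within Cenpo named above, which was also in the P3 bulb and P3 cortex lists.

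**Figure D5:**
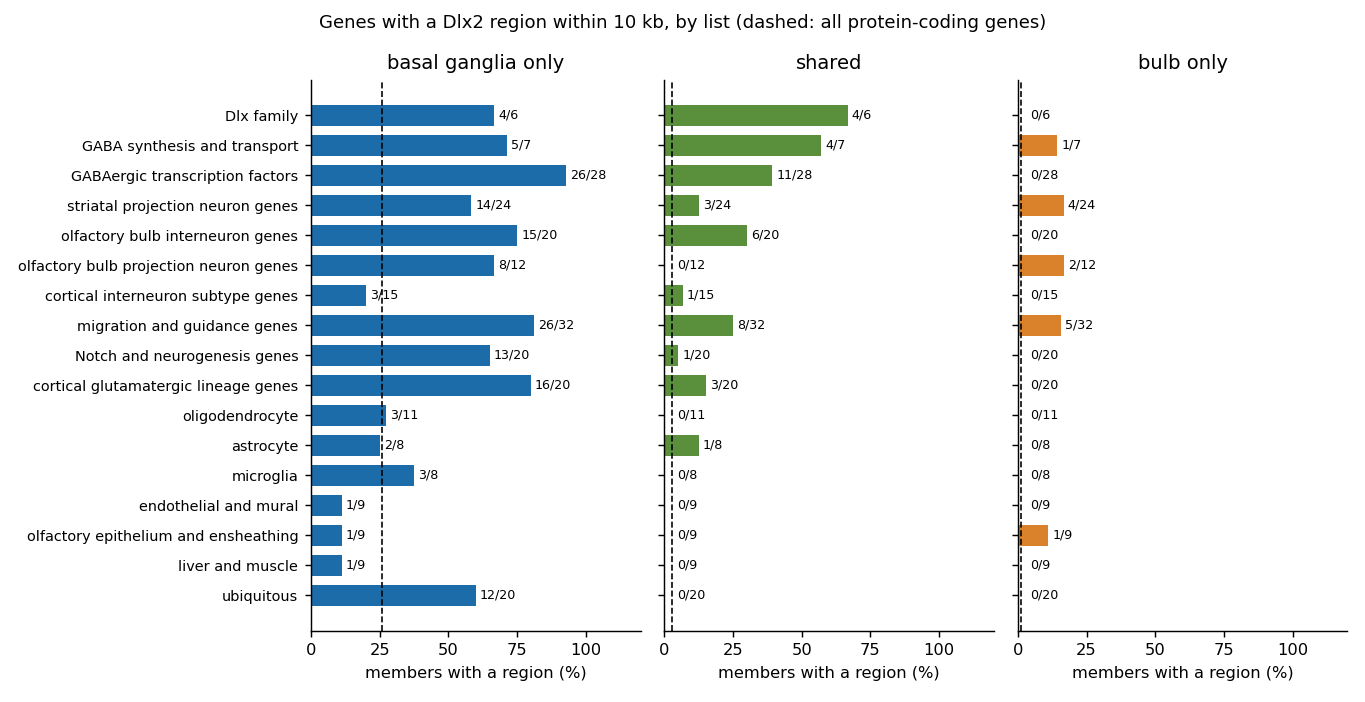
Share of the members of 17 gene lists (rows) with a basal-ganglia-only, shared or bulb-only Dlx2 region within 10 kb (panels; x axis in %, counts beside the bars), with the share of all protein-coding genes as a dashed line at 25.9%, 2.58% and 1.27%. Shared regions occur at 4 of 6 Dlx and 4 of 7 GABA genes and at 0 of 20 ubiquitous genes.

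Some genes carried many regions. After Meis2 and Bcl11b, the most basal-ganglia-only regions lay at Gse1 (36), Auts2 (35) and Tcf4, a basic helix-loop-helix factor gene (34). Gse1 and Auts2 also had the most shared bulb regions, 6 each, followed by Tex14 with 5, Dlx1 with 4 and Mvb12b with 4. Gse1, Auts2, Tcf4 and Meis2 span 206 to 1106 kb, whereas Bcl11b spans 93.7 kb and Dlx1 5.87 kb. The most bulb-only regions at any gene was 2, at Tbl1xr1, Alcam, Ttll11, Kcnh5 and Tmtc2 among others. That class holds 454 regions against 13526 basal-ganglia-only ones, so the highest counts per gene cannot be compared between the classes.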

How the data were processed

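Dlx2 ChIP-seq was deposited as 1 narrowPeak list per library, without replicates. Trimmomatic, Bowtie2, SAMtools and MACS2, without versions, and build mm10 are named per the submitters' processing notes. Threshold, control library and depth of the peak calls: not given in the sources used here. In the deposited lists, fold enrichment is a ratio over local background, the −log10 p-value and −log10 q-value describe the summit, and the deposited score is 10 times −log10 q cut to a whole number and was not used. Start, end and summit coordinates are the authors' and are given counted from 1.

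From these lists, regions of chromosomes 1 to 19 and X were kept and overlaps of at least 1 bp were found with Python 3.11.15, pandas 2.3.3 and scipy 1.17.1. The functions recovered planted overlaps in simulated lists. RefSeq tables of GRCm38.p6 gave gene boundaries without strand for 21627 protein-coding genes, and promoters for 17273 of them; because the promoter table is incomplete, gene boundaries were used for location. All 230 genes of the 17 lists were found. A region was assigned to the protein-coding gene that holds its summit (the shortest of several), otherwise to the nearest. Named were the genes at the 10 shared pairs of lowest summed rank, the 10 strongest regions of each tissue alone, the pairs with the largest rank difference each way (5 each), the 5 genes with the most regions per class, list members, and strong promoter regions. The members and lists were chosen with earlier results of these data known. Some results that the rules name are not reported here. Alternatives were other overlap rules, a −log10 q minimum of 10, equal list lengths, a width limit of 1 kb, other gene windows and protein-coding genes alone.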

Additional observations from a re-analysis of the deposited data

Results flagged for a closer look

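The E16 basal ganglia list held 63 regions outside chromosomes 1 to 19 and X, above the limit of 3 set for a flag. The choice of chromosomes left them out, and no comparison used them. Of these 27 lay on chromosome Y and 36 on unplaced sequence, with a median fold enrichment of 1.51. The E16 bulb list held 1, on chromosome Y.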

How the results depend on the processing

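The shares shifted with the overlap rule and the list length, and 18 of 46 recomputed values stayed within the counting interval, or for counts within 1.5 times, of the reported value. The basal ganglia and bulb shares were 6.24% and 55.2% with an overlap of at least 0.5 of both regions, 7.68% and 68.0% with summits within 200 bp, 9.32% and 69.8% at a −log10 q of at least 10, and 34.7% and 35.1% with equal numbers of regions. Without regions wider than 1 kb the bulb share was 60.8%. The order of the boundary point values (basal ganglia only, bulb only, shared) was the same in all 3 alternatives: 30.5%, 19.6% and 17.2% within 2.5 kb, 11.6%, 9.69% and 3.57% with protein-coding genes alone, and 14.3%, 11.5% and 7.64% at a −log10 q of at least 10. The basal-ganglia-only and shared intervals did not overlap in any setting. The bulb-only interval overlapped that of another class in each, so its place in the order is not resolved. Outside genes lay 19.9% of basal-ganglia-only summits with the 2.5 kb limit, 30.7% with protein-coding genes alone (52.2% of shared and 50.4% of bulb-only) and 26.8% at a −log10 q of at least 10. With summits within 200 bp, 17.2% of basal-ganglia-only and 10.1% of shared regions were in the E16 cortex list and 2.57% of basal-ganglia-only in the P3 cortex list. List members with a bulb-only region were 12 of 230, and 7 with the gene body alone, against 1.27% and 0.865% of all protein-coding genes. With equal numbers of regions they were 24, against 2.64%. Members with a basal-ganglia-only region were then 50, against 4.5% of all protein-coding genes, and 131 at full length, against 25.9%. Fewer basal ganglia regions leave fewer of that class and more bulb-only. No paired analysis was possible because each group has 1 library. Read depth is unknown, so whether missing regions reflect depth was not tested.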

Other observations

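Small nuclear RNA genes, many of which encode RNAs of the splicing machinery in near-identical copies, carried part of the shared and bulb-only regions. By the annotated type, small nuclear RNA genes had a summit within 1 kb from 10 of 13526 basal-ganglia-only, 22 of 1206 shared and 7 of 454 bulb-only regions. With small nucleolar RNA genes included, summits within 1 kb made up 69 of 13526 basal-ganglia-only regions (0.51%, 0.397 to 0.645), 22 of 1206 shared regions (1.82%, 1.15 to 2.75) and 8 of 454 bulb-only regions (1.76%, 0.764 to 3.44). All 22 shared regions of this kind were in the P3 cortex list and 20 in the P3 bulb list, and of the 8 bulb-only ones 7 were in each. The 69 basal-ganglia-only ones were in the P3 cortex list in 5 cases. Among the shared ones were Rnu11 (fold enrichment 9.97 in the basal ganglia and 5.72 in the bulb), Rnu1a1 (7.71 and 6.77) and Rnu2-10 (6.75 and 6.42), and 5 shared summits with 1 bulb-only summit lay within 10 kb of Tex14. Reads from copies of such genes cannot be told apart, and the part of this in the calls was not tested.

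Basal-ganglia-only regions lay close together more often than shared ones. Another region of the same list had its summit within 10 kb in 47.5% (46.6 to 48.3) of basal-ganglia-only and 27.5% (25.02 to 30.1) of shared basal ganglia regions, and in 8.01% (6.54 to 9.68) of shared and 3.30% (1.86 to 5.39) of bulb-only bulb regions.

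The shared part differed little by chromosome in the bulb list, where it was 21 of 35 regions on chromosome 15 (42.1 to 76.1%) and 12 of 15 on chromosome X (51.9 to 95.7%), the lowest and the highest share. In the basal ganglia list it was 3.74% (2.33 to 5.67) of 561 regions on chromosome 15 and 11.1% (8.80 to 13.7) of 658 on chromosome 13.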
